A study of Mus musculus with 7 samples.

Results

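The cyclin-dependent kinase inhibitors of the mouse were followed across all arrays of the series: Cdkn1a, Cdkn1b and Cdkn1c of the Cip/Kip family, Cdkn2a, Cdkn2b, Cdkn2c and Cdkn2d of the INK4 family, and Cdkn3, a phosphatase of Cdk2. A probe set belonged to the set if the platform annotation gave it a single gene symbol and that symbol was one of these 8. This found 12 of the 50689 probe sets. Of these, 9 were on the 430A array, 1 on 430B, 2 were reverse probe sets of U74A, and 0 were on U74B. The genes were selected on gene family and on one measured value, the kidney reverse signal of Cdkn1b, the highest on the kidney U74A array. That value is given as a description only.

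The samples were total RNA of whole dissected mouse brain and of dissected mouse kidneys, rinsed in cold PBS and extracted with TRIzol, with 8 micrograms labelled for brain and 6.75 for kidney. The labels name no strain, sex, age, treatment or number of animals. Antisense RNA was read with the reverse-oriented probe sets of U74A and U74B in both tissues. Sense RNA was read on 430A and 430B for brain and on 430 2.0, which carries the probe sets of both, for kidney. With 1 array for each tissue on each design there was no replicate error, so differences are given by size and without a p-value. In whole-tissue RNA, fewer cells of a type and less RNA per cell cannot be told apart. For sense RNA, array type and tissue cannot be told apart either.

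Cyclin-dependent kinases drive the cell cycle when bound to a cyclin. Cip/Kip proteins bind cyclin and kinase together, mainly those of Cdk2 but also those of Cdk4 and Cdk6, whereas INK4 proteins bind Cdk4 and Cdk6 alone and keep them from D-type cyclins. Both keep the retinoblastoma protein in its active state, in which it holds E2F factors back. In brain and kidney most cells no longer divide, and several of the inhibitors stay expressed in such differentiated cells.

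The labelled tissues were checked against marker genes of neurons, glia, tubule segments and other cells. Brain had the higher signal by over 2-fold for all 3 neuronal and all 3 glial markers measured, and all 4 proximal tubule and all 4 loop and distal nephron markers were higher in kidney. Podocyte markers were mixed (Podxl higher in kidney, Synpo in brain, Wt1 within 2-fold and Nphs1 too low to compare). The fat markers Fabp4 and Adipoq read 4989.2 and 616 in kidney against 24 and 4.8 in brain. The pituitary hormones Gh and Prl read 5129.1 and 4519.1 in brain against 33.8 and 1.6 in kidney. Of 4 endothelial markers, Cdh5 and Tek were higher in kidney and 2 lay within 2-fold. Of the choroid plexus markers, Kl and Folr1, which kidney tubules also express, were higher in kidney, and Ttr read 5014 in brain and 5593.3 in kidney. Of 4 immune markers, 2 were bright enough to compare, and both lay within 2-fold.

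Promoter windows are shown for members whose tissue values are described below: the kidney-high Cdkn1a and Cdkn3, the brain-high Cdkn2d, and Cdkn1b with its bright reverse probe set. They are RefSeq sequences of GRCm38.p6, from 250 bases before to 50 bases after an annotated start, 5′ to 3′ on the gene's strand. Of the 8 genes, 7 (all but Cdkn1c) had a window in the table, 10 windows in all. The window of Cdkn1a is the downstream of its 2 starts. Capitals mark GC boxes (GGGCGG or its complement CCGCCC) and CCAAT boxes (CCAAT or ATTGG), searched on both strands, and none of the matches in these 4 windows overlap.
Cdkn1b, chr6:134920151-134920450, plus strand: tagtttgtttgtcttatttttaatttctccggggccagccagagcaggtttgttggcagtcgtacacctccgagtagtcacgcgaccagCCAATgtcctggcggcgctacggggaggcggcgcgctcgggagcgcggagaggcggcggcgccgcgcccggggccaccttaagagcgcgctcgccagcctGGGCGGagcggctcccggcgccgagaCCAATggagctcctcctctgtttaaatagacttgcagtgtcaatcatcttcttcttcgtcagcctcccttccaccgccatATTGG
Cdkn1a, chr17:29093519-29093818, plus strand: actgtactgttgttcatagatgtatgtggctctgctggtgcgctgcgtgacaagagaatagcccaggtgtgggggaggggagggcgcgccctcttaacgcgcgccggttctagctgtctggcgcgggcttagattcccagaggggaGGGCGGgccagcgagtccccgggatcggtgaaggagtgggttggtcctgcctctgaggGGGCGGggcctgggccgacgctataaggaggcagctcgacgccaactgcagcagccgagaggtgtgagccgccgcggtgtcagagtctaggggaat
Cdkn3, chr14:46760291-46760590, plus strand: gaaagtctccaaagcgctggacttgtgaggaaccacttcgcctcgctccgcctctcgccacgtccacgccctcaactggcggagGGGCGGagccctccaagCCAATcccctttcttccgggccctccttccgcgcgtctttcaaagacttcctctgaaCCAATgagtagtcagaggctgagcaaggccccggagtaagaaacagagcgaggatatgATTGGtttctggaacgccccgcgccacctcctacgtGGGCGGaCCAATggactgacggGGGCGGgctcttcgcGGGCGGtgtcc
Cdkn2d, chr9:21291160-21291459, minus strand: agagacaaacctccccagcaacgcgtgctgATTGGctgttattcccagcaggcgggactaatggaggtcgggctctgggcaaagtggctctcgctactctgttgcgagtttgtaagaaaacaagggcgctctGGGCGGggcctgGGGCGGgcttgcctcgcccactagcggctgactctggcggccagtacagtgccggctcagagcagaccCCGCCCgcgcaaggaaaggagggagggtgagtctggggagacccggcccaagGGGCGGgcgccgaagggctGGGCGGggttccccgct

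The Cdkn1b window held 1 GC box and 3 CCAAT boxes, that of Cdkn1a 2 and 0, that of Cdkn3 4 and 4, and that of Cdkn2d 5 and 1. A GC box was in 8 of the 10 member windows and in 35.7% of all 32851 windows, and a CCAAT box in 5 of 10 and in 37.4% of all. The letters TATAAA were in 0 of the 10 and in 13.6% of all. The upstream start of Cdkn1a, not shown, had 0 GC boxes and 0 CCAAT boxes. These matches describe letters in the windows, not bound sites.

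The first comparison asked which inhibitors had antisense signal, and in which tissue. Cdkn1b, the Cip/Kip protein also called p27Kip1, read 502 in brain and 2788.8 in kidney on its reverse probe set 104459_at, a 5.56-fold higher value in kidney. The kidney value ranked 1 of 2611 on that array and the brain value 42 of 2611, so this probe set was bright in both tissues. Cdkn2c, the INK4 protein p18, read 217.8 in brain and 173.7 in kidney on 103561_s_at, within 2-fold (1.25-fold higher in brain). These values ranked 138 and 77 of 2611, also far up on both arrays. The remaining 6 genes had no reverse probe set with their symbol among those analysed.

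**Figure D1:**
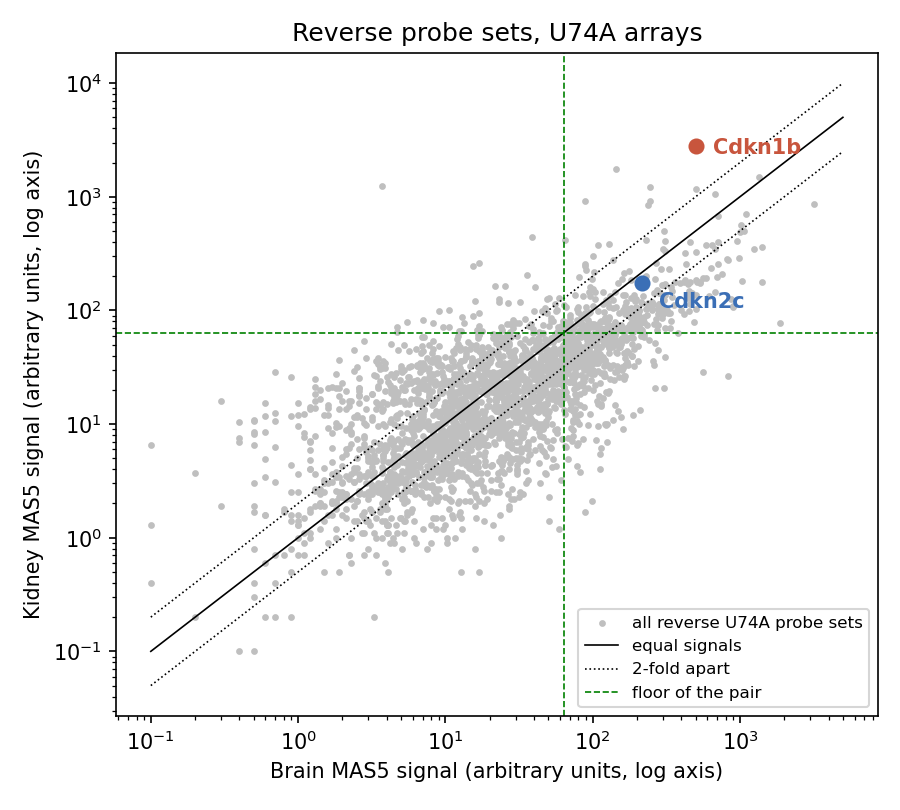
Reverse probe sets of the U74A arrays, with the brain MAS5 signal on the horizontal and the kidney MAS5 signal on the vertical log axis, 1 point per probe set and 1 array per tissue; the solid line marks equal signals, dotted lines 2-fold, dashed lines the floor of 63.5. Cdkn1b lies above the upper 2-fold line at 502 and 2788.8, and Cdkn2c between the lines at 217.8 and 173.7.

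Signals under the floor of 63.5, the higher of both arrays' 75th percentiles, were raised to it before a ratio was taken, which touched neither gene. In either tissue or both, 723 reverse U74A probe sets reached the floor. Cdkn1b was among the 3.73% of them that were higher in kidney by 2-fold or more, and 28.8% were higher in brain. Because the kidney value of Cdkn1b chose the set, nothing is read from this share. The log2 ratio of brain over kidney was -2.47 for Cdkn1b and 0.33 for Cdkn2c, with a median of 0.55 over the 723. By this ratio Cdkn1b ranked 6 of 723 towards kidney, and 4 of the 305 above the floor in both tissues. Median-centring put the ratio of Cdkn1b at -3.21 and quantile normalization at -2.97. The ratio of Cdkn2c turned to -0.41 and -0.53 under these scalings, so its direction rested on the scaling.

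Both probe sets were read against what else is known of them. The Cdkn1b probe set has no suffix mark, and the sequence it was designed to is an expressed sequence tag that RefSeq lists among the synonyms of Cdkn1b. That of Cdkn2c carries the suffix _s_at, which Affymetrix gave to probe sets shared by more than 1 transcript, so its signal may not be of Cdkn2c alone. Over the 1338 reverse U74A probe sets without a suffix, Cdkn1b stood at percentile 99.2 in brain and 100 in kidney. The kidney percentile was fixed by its top rank on the whole array, the value that chose the set, so nothing is read from it. The orientation of both rests on Affymetrix's mask, since probe sequences were not used here.

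The reverse probe sets of named genes most like that of Cdkn1b, by distance of the log2 signals over both arrays, were those of Eef1b2, Sf3b2, Tmed7 and Pcbp2. Eef1b2, a translation elongation factor subunit, read 500.4 in brain and 1170.2 in kidney, at a distance of 1.25. Sf3b2, a splicing factor, read 681.1 and 1059.8 (1.46), and Pcbp2, an RNA-binding protein, 1344.6 and 1491.3 (1.68). Tmed7 read 243.5 and 1211.2 (1.59). These were picked for their likeness to Cdkn1b, so their signals are a description. The probe sets of Sf3b2 and Tmed7 carry the suffix _f_at, so their signals may include other transcripts.

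Genes next to the members in RefSeq GRCm38.p6 were looked up after the values were seen. Beside Cdkn1b lie 2 noncoding RNAs, 2810454H06Rik and Lockd, both annotated on the same strand as Cdkn1b, and no gene in that annotation overlaps it. The reverse probe set of Lockd read 9.4 in brain and 65.7 in kidney on U74B, below that design's floor of 98.5 in both. Its sense probe set read 7.9 and 12.4 as deposited (430B for brain), and that of 2810454H06Rik 133.7 and 44.1. By percentile, 2810454H06Rik stood at 53.1 in brain and 52.3 in kidney, and no direction is read from its signals. Beside Cdkn2c lies Faf1, on the other strand, whose reverse probe set 94656_f_at read 347 in brain and 149.2 in kidney. Among the 8 members, only Cdkn2b is overlapped by an annotated gene, the noncoding Gm12610 on the other strand.

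The next comparison set sense RNA of brain against kidney. Cdkn1c and Cdkn1a of the Cip/Kip family and Cdkn3 were higher in kidney, Cdkn2d was higher in brain, Cdkn1b and Cdkn2c lay within 2-fold, and Cdkn2a and Cdkn2b were below the floor in both tissues. Brain and kidney signals of each design were centred on the median log2 ratio of bright probe sets, and values under the floor (on the kidney array's scale, 186.4 for probe sets of 430A and 28.6 for those of 430B) were raised to it. Folds are therefore not the ratios of the deposited signals, and a fold against a tissue under the floor is a lower bound at that scaling only. Over the 100 probe sets that both brain arrays carry, the median log2 ratio of 430A over 430B was -1.33, less than the gap between the 2 centrings (-0.84 and 2.08). Kidney-high folds of 430B probe sets are therefore larger with each design centred by itself than with 430B brought to the 430A scale by those probe sets, and values at both scalings are given. Of the 8 genes, 6 reached the floor in at least 1 tissue, of which 3 were 2-fold or more higher in kidney and 1 in brain. Among all 12913 genes at or above the floor, 26.4% were higher in kidney and 18.2% in brain. With 430B at the 430A scale this balance turned, with 1956 genes higher in kidney and 3316 in brain, and the all-gene median moved from -0.08 to 0.29; 1 of the 8 members, Cdkn3, is on 430B. The median log2 ratio over the 6 members was -1.26.

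**Figure D2:**
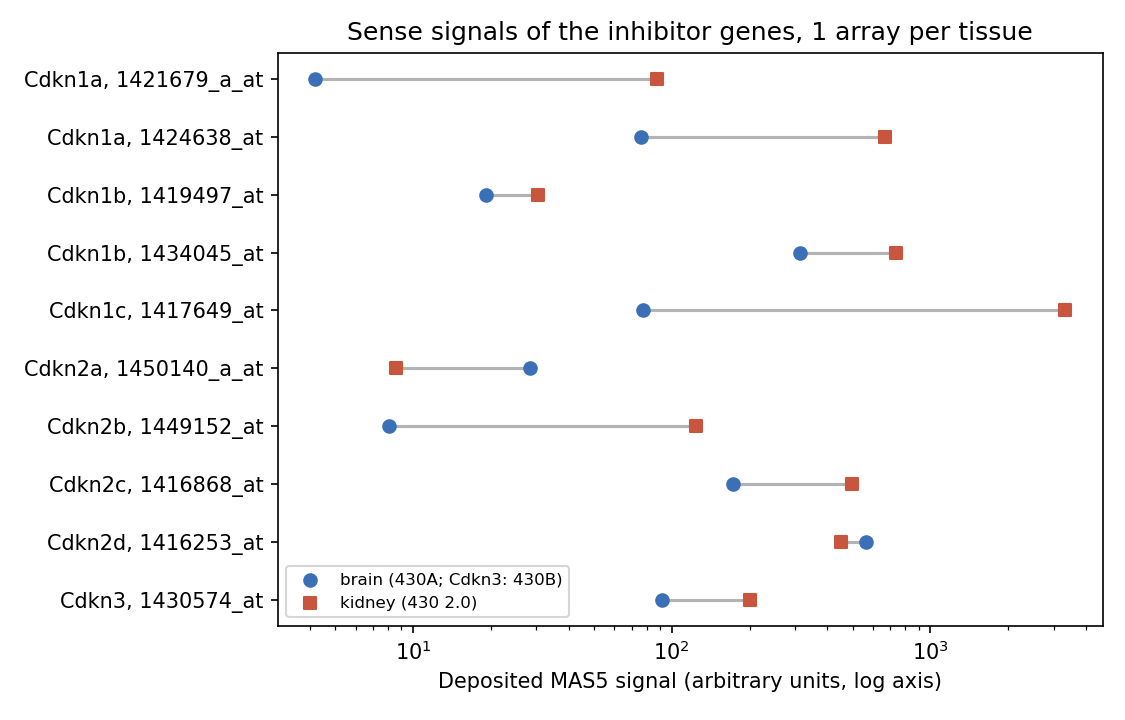
Deposited MAS5 sense signal on a log axis for each of the 10 sense probe sets of the inhibitor genes, with brain as circles and kidney as squares, 1 array per tissue and signals before centring. Cdkn1c has the widest gap among the probe sets, from 77.4 to 3313.9, while Cdkn2d (565.2 and 452.6) and Cdkn2a (28.3 and 8.6) are the ones with a higher brain signal.

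Among the Cip/Kip genes, Cdkn1c (p57Kip2), an imprinted gene expressed from the maternal copy and known in kidney from mature podocytes, read 77.4 in brain and 3313.9 in kidney. It was at least 17.8-fold higher in kidney, and 0.898% of the 12913 genes at or above the floor, 430B genes included, had a lower ratio. Its percentile was 41.3 on the brain 430A array and 98.3 on the kidney array (96.7 over the 430A probe sets there). Of the podocyte markers in kidney, Podxl read 1837.5, Wt1 312.1, Nphs1 121.8 and Synpo 20. Their part in the level of Cdkn1c was not tested.

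Cdkn1a (p21Cip1), which halts the cycle after DNA damage, had 2 sense probe sets. The probe set 1424638_at read 76.1 in brain and 665.6 in kidney. After centring, that was higher in kidney by at least 3.57-fold. The other, 1421679_a_at, read 4.2 and 87.5, under the floor in both tissues though in the same order. Raising the floor to the 75th percentile moved the log2 ratio of Cdkn1a to -0.54, under 2-fold. Its percentile was 40.9 in brain and, over the same probe sets, 82.2 in kidney.

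Cdkn1b, which holds cells in the resting state, also had 2 sense probe sets, of which 1 reached the floor. The probe set 1434045_at read 313.6 in brain and 737.2 in kidney, 1.31-fold higher in kidney after centring. The probe set 1419497_at read 19.1 and 30.3, under the floor in both tissues. Signals as deposited put 1434045_at at a log2 ratio of -1.23, past 2-fold, and quantile normalization at -0.32. On the sense side Cdkn1b thus stood at percentile 80.0 in brain and 90.9 in kidney (83.7 over the 430A probe sets), and on the reverse side at 98.4 and 100. Percentiles within an array still carry the binding strength of each probe, so they do not give a ratio of antisense to sense RNA. The reverse log2 ratio of -2.47 and the sense log2 ratio of -0.39 come from different arrays and different scalings, and their difference was not tested.

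Among the INK4 genes, Cdkn2d (p19), known from neurons that have left the cycle, read 565.2 in brain and 452.6 in kidney, 2.24-fold higher in brain after centring. As deposited, the signals were 1.25-fold apart, and quantile normalization gave a log2 ratio of 1.33. It was the only one of the 8 genes with a call towards brain, and that call was lost with signals as deposited. Cdkn2c read 172.7 and 499.2, 1.61-fold higher in kidney after centring and 2.89-fold as deposited. With the higher floor the log2 ratio was -0.12. Its reverse reading was not called in any setting, and its sense reading only with signals as deposited, so no direction is drawn between them.

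Cdkn2b (p15) read 8.1 in brain and 124.4 in kidney, under the floor of 186.4 in both, so no fold is given. Cdkn2a, whose locus encodes p16 and the ARF protein and which is known to be low in healthy tissue, read 28.3 and 8.6, also under the floor. Their kidney percentiles were 67.7 and 21.3 on the whole array and 50.4 and 13.4 over the 430A probe sets there. Their brain percentiles were 8.40 and 20.6. Cdkn2a and Cdkn2b are neighbours on the genome. Of the pair, Cdkn2b had a kidney signal above the whole array's median of 38.8, though near the median of the 430A probe sets there.

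Cdkn3 was the only member on 430B and read 91.7 in brain and 201.1 in kidney. As deposited, the signals were 2.19-fold apart, or -0.73 on the log2 scale with the floor, under 2-fold. Towards kidney, the fold against the floor was 2.32 at the 430A scale and 7.02 with 430B centred by itself, so its size was set by the scaling and neither is a bound. The other settings tried kept it past 2-fold towards kidney, at -1.69 with the higher floor and -2.35 with quantile normalization.

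**Figure D3:**
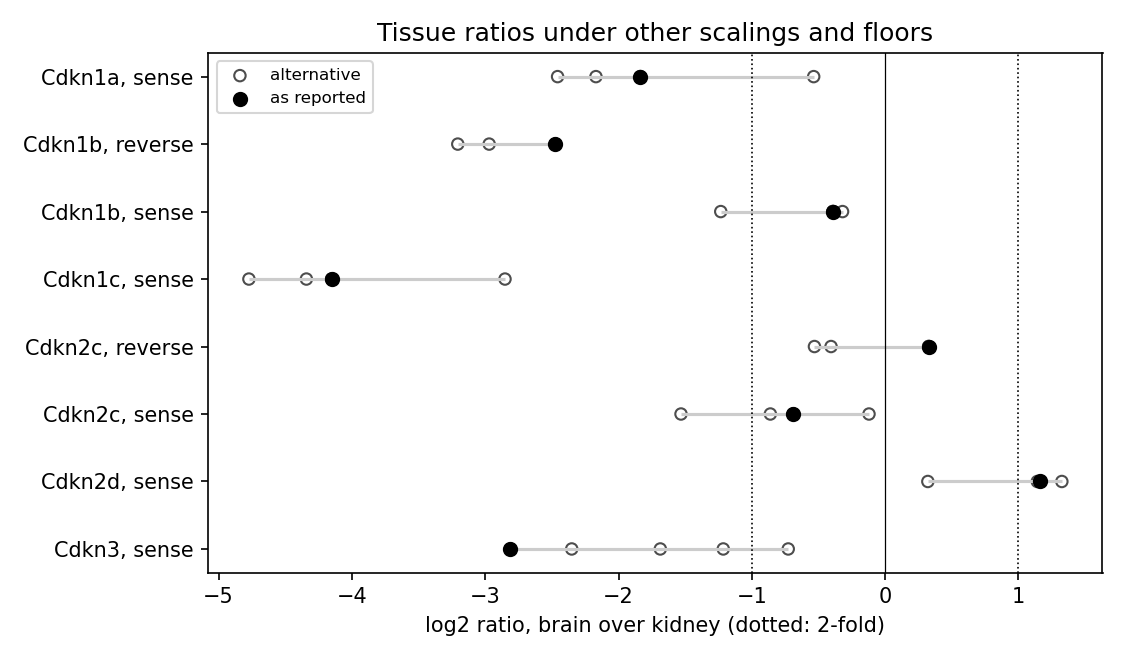
Log2 ratio of brain over kidney on the horizontal axis for 8 readings of 6 inhibitor genes, as reported (filled) and under the other scalings and floors (open), with 1 array per tissue; dotted lines mark 2-fold, and Cdkn2a and Cdkn2b are not drawn. Cdkn1c and the reverse reading of Cdkn1b stay left of the 2-fold line in every setting drawn, and the reverse reading of Cdkn2c crosses 0. The kidney reverse signal of Cdkn1b chose the set, and the other floors lay below both its signals and could not move that ratio.

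The partners and regulators of the inhibitors were set beside them as 6 lists. Of the kinases and cyclins that the inhibitors bind, 12 were measured and 11 reached the floor. Of these 11, 8 were higher in kidney and 0 in brain, beside 26.4% and 18.2% of all genes. Their median log2 ratio was -1.60, beside -0.08 over all genes. Cdk6, the kinase bound by INK4 proteins, read 160.1 in brain and 520.7 in kidney (4.56-fold at the 430A scale, 13.8-fold with 430B centred by itself). The mitotic kinase Cdk1 read 40.8 and 716.1 (at least 3.84-fold), cyclin Ccnd3 123.5 and 809.4 (3.66-fold) and cyclin Ccna2 142.9 and 935.8 (3.65-fold). When the floor was raised to the 75th percentile, 5 kinases and cyclins were higher in kidney, beside 2431 of all 8715 genes that reached it.

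Of genes marking DNA replication and mitosis, 15 of 17 reached the floor, with a median of -1.84. Among these 15, 12 were higher in kidney and 0 in brain, beside 26.4% and 18.2% of all genes. Rrm2, a ribonucleotide reductase subunit, gave signals of 34.2 for brain and 2663.5 for kidney (14.3-fold or more). The mitotic activator Cdc20 read 72.8 and 1538.9 (at least 8.26-fold), and the replication helicase subunits Mcm7 162.9 and 2054.5 (7.04-fold) and Mcm5 66.4 and 1256.7 (against the floor, 14.5-fold at the 430A scale and 43.9-fold with 430B centred by itself). The probe sets of Rrm2, Cdc20 and Mcm5 carry the suffix _x_at and that of Mcm7 _s_at, so their signals may include other transcripts. Dividing cells express Cdkn3 too, and the part of the list's higher kidney signal in that of Cdkn3 was not tested. On the higher floor, 6 were higher in kidney, beside 2431 of all 8715 genes that reached it.

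Cdk5 and its activators, a kinase complex of neurons that is not driven by cyclins, ran the other way. Of these, 3 of 3 were higher in brain, beside 18.2% of all genes. Cdk5 read 527.6 in brain and 250.6 in kidney (3.77-fold), its activator Cdk5r1 890.6 and 57.6 (at least 8.56-fold) and Cdk5r2 488 and 19.9 (at least 4.69-fold). On the higher floor, 2 of the 3 stayed past 2-fold, where 1097 of all 8715 genes were higher in brain.

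**Figure D4:**
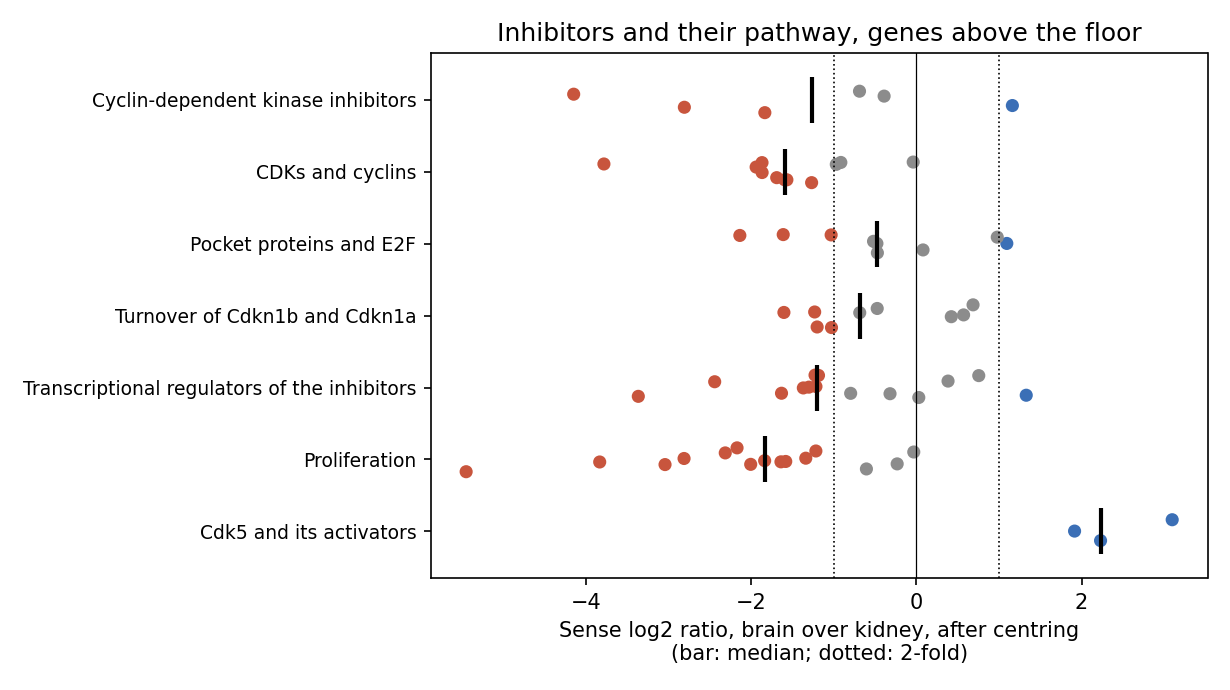
Sense log2 ratio of brain over kidney after centring, 1 point per gene at or above the floor, for the inhibitors and the 6 lists of their pathway; bars mark the median of each row and dotted lines 2-fold, with kidney-high genes to the left and 1 array per tissue. The medians lie at -1.26 for the inhibitors, -1.60 for kinases and cyclins, -1.84 for proliferation genes and 2.23 for Cdk5 and its activators.

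Retinoblastoma family and E2F genes gave 3 of 9 higher in kidney and 1 in brain, near the shares of all genes (26.4% and 18.2%). Their median of -0.48 turned to 0.08 with 430B at the 430A scale. There, 1 was higher in kidney and 3 in brain, beside 1956 and 3316 of all 12473 genes. Rb1 read 155.9 in brain and 855.1 in kidney (3.06-fold), and E2f4, a factor of resting cells, 222.1 and 95.1 (at least 2.14-fold higher in brain). E2f7 read 82.2 and 126.2 and E2f2 143.6 and 69.3; with 430B centred by itself they were 4.41-fold and 2.05-fold higher in kidney, but at the 430A scale E2f7 was within 2-fold and E2f2 turned towards brain (log2 0.24). Of genes for the breakdown of Cdkn1b and Cdkn1a, 4 of 9 had the higher signal in kidney and 0 in brain, beside 26.4% and 18.2% of all genes, with a median of -0.69. They were Cks1b, the cofactor of the ligase that removes Cdkn1b (99.3 and 567.1), Ddb1 (395.3 and 1664.9), Cul4a (133.8 and 552) and Cops5 (375 and 1371.3). With quantile normalization or the higher floor it was 2, near the share of all genes.

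Of transcriptional regulators, 8 of 14 were higher in kidney and 1 in brain, beside 26.4% and 18.2% of all genes, with a median of -1.20. At the 430A scale, 5 were higher in kidney and 2 in brain, beside 1956 and 3316 of all 12473 genes. Sp1, a factor that binds GC boxes, read 352.7 in brain and 859.4 in kidney (3.42-fold at the 430A scale, 10.3-fold with 430B centred by itself). Smad3, of TGF-beta signalling, read 747 and 958.4 and Foxo4 242.6 and 177.6; both were past 2-fold towards kidney (5.44-fold and 3.11-fold) and under 2-fold at the 430A scale. Bmi1, a repressor of Cdkn2a, read 152.3 and 705.6 (2.59-fold).

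On the reverse arrays, few genes of the lists were represented: 7 had a reverse probe set and 3 reached the floor. Cdc34, the ubiquitin-conjugating enzyme of Cdkn1b breakdown, read 1242 in brain and 347.1 in kidney (3.58-fold higher in brain, on a probe set with the suffix _f_at). Skp2, the ligase subunit that recognises Cdkn1b, read 141.2 and 125.5, within 2-fold. Cdk5r1 read 628.5 and 43.2, at least 6.38-fold higher in brain, also on an _f_at probe set. The 4 below the floor were Cdk4, Rbl2, Foxo1 and Mcm3. By gene, 19.8% of the 1009 genes with reverse signal above the floor were higher in brain and 4.66% in kidney (200 and 47 genes). Median-centring made this 102 and 89, and quantile normalization 77 and 108, with the all-gene median moving from 0.35 to 0.08 and 0.04.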

How the data were processed

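The deposited intensity of each probe set was its linear MAS5 signal, per the submitters' processing notes; the scaling target and software version are not given in the sources used here. Per the labels, the U74 files were limited to reverse probe sets by means of Affymetrix's mask. Detection calls were not used here; a floor took their place. Symbols came from GEO's platform annotation, updated by gene identifier to RefSeq GRCm38.p6.

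Reverse signals were compared as deposited, with a floor at the higher 75th percentile of a pair. Sense pairs were centred (-0.84 removed from 430A and 2.08 from 430B on the log2 scale), with a floor at the higher median. A ratio of 2-fold or more was a call. A gene was represented by its probe set with the highest mean percentile. The 100 probe sets on both brain arrays, used from 430A, differed by an SD of 0.25 (log2) over the 98 above both medians, the only repeat reading, around a median of -1.33.

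The rule named every member probe set, the 4 (sense) or 3 (reverse) list genes with the largest ratio, and the 4 reverse probe sets nearest to Cdkn1b. The members and lists were chosen with earlier results of these data known. Calling steps were tested on simulated data. Python 3.11.15 and pandas 2.3.3 were used. With 1 array per group, no test was possible.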

Additional observations from a re-analysis of the deposited data

How the results depend on the processing

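The reverse log2 ratio of Cdkn1b, whose kidney signal chose the set, was -3.21 and -2.97 under the rescalings; both other floors lay below its signals and could not move it. The reverse counts (1 gene higher in kidney, 0 in brain) did not move. The 1 gene was Cdkn1b itself, so nothing is read from the unchanged counts. Over all genes, the reverse balance given above did shift with the rescalings. For sense RNA, signals as deposited left 0 genes higher in brain, where the centred signals gave 1 (Cdkn2d), and gave 4 in kidney: Cdkn1b and Cdkn2c joined and Cdkn3 left. The higher floor left 2 in kidney. Cdkn1c stayed at -2.85 or beyond under the 5 sense alternatives. List medians kept their direction except that of the retinoblastoma and E2F genes, but ranged from -2.31 to -1.03 for kinases and cyclins, -2.44 to -1.02 for proliferation, -1.32 to -0.32 for breakdown and -1.26 to -0.56 for regulators. Among members, 3 gene ratios fell under 2-fold under 1 alternative each (Cdkn1a, Cdkn2d, Cdkn3) and 2 rose past it (Cdkn1b, Cdkn2c); the cause was not tested. Calls rest on a floor set at a percentile of the array signals, which is not a detection limit. A member under it, such as Cdkn2a, was too low to compare here rather than absent. Cdkn2b, under the main floor, reached the floor with signals as deposited and with quantile normalization, at log2 ratios of -0.04 and -0.03. No paired analysis was possible because each group had 1 array.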
